A study of Mus musculus with 12 samples.

Results

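The 9 genes described here mark the B lineage: Rag1, Igll1, Vpreb1 and Vpreb3, used mainly by B cell precursors, the lineage factors Ebf1 and Pax5, and Cd79a, Cd79b and Ms4a1, carried on by mature B cells. They are 9 of the 19938 genes that had an array row annotated with their symbol alone, and they were measured in ankle joints of 12 mice on the Affymetrix Mouse Gene 1.0 ST array. Rows of a gene with several were to be chosen by their mean signal over the 12 arrays, the only measured value in the rule, but each of the 9 genes had 1 row and the mean decided nothing. All 9 also passed the filter on low signal, as did 15991 genes in all. The genes were listed with earlier results of these arrays known, so their counts describe these genes and are no independent evidence of a direction.

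There were 4 groups of 3 mice. Arthritic Mmp8-/- mice lacked matrix metalloproteinase 8, a collagenase of neutrophils, and had been given 150 μl of K/BxN serum into the peritoneum on day 0 and again on day 2. They were killed on day 7. Mmp8-/- control mice were labelled with the same deletion and no arthritis, a label that 1 of their arrays goes against. Arthritic Mmp8+/+ mice were wild type and had the same serum and the same days, and Mmp8+/+ control mice were wild type without arthritis. All groups were described as male mice of the C57BL/6 strain, and both genotypes had come from crosses between heterozygous mice. K/BxN serum carries antibodies that start joint inflammation in the recipient, so the model transfers disease without an immunization of the recipient. Recipients were young mice, several weeks old, and the serum came from a pool of arthritic K/BxN donors. What control mice were injected with, if anything, was not given in the sources used here.

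Libraries and labels were checked on the same arrays. Median signals of the 12 arrays lay between 6.74 and 6.82 on the log2 scale. Mmp8 read 10.65 on the array of replicate 2 labelled Mmp8-/- control, against 4.64 to 5.54 on the other Mmp8-/- arrays and 10.21 to 11.16 on the Mmp8+/+ arrays. Xist, an RNA of female cells, had a signal of 10.92 on the array of Mmp8-/- control replicate 1 and 10.42 on that of Mmp8+/+ control replicate 1, against 4.66 to 5.41 on the other 10. Eif2s3y, a gene of the Y chromosome, read 4.16 and 4.02 on the same 2 arrays, against 7.94 to 9.27 on the other 10. Both signals are those of female mice, against the description as male. Each control group holds 1 such array and the arthritic groups none, so sex is partly confounded with arthritis. These 2 arrays and the Mmp8-/- control array with Mmp8 signal are the 3 called doubtful here. Calls of the 9 genes and counts of the gene lists are given with and without them. Of 10 markers of cartilage, synovium, bone, muscle and skin, 9 had a row of their own and passed the filter, and their mean log2 signal was 10.06 to 11.16 on every array.

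B cells are made in bone marrow. A precursor first rearranges its heavy chain gene with the recombinase that RAG1 and RAG2 form, and tests the product in a pre-B cell receptor, in which VPREB1 and IGLL1 (lambda 5) take the place of a light chain. EBF1 and PAX5 set up and keep the B cell programme, CD79A and CD79B signal for the antigen receptor at every stage that carries one, and CD20, the product of Ms4a1, appears late. The marrow spaces of ankle bones are part of the pulverized joint, and mature B cells can also come from blood and lymphoid tissue. In whole joint RNA, fewer B lineage cells and less RNA per cell cannot be told apart.

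Vpreb1 and Igll1 lie next to each other on chromosome 16, on the same strand. Their promoters are shown because these neighbours behaved differently on the arrays, with those of Rag1 and Cd79a as a precursor gene and a receptor gene that fell. Each line runs from 250 bases before to 50 bases after the annotated start, in RefSeq's GRCm38.p6. Capitals mark the E box CAGGTG on either strand, the sequence that E2A recognizes. The positions are chr16:16863936-16864235 on the minus strand for Igll1, chr16:16869206-16869505 on the minus strand for Vpreb1, chr2:101649483-101649782 on the minus strand for Rag1 and chr7:24897247-24897546 on the plus strand for Cd79a.
Igll1: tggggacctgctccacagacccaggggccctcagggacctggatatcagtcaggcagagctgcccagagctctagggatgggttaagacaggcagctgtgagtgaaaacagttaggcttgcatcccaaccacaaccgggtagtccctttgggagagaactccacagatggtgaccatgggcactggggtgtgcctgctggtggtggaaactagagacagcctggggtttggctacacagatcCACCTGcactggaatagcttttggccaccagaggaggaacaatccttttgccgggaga
Vpreb1: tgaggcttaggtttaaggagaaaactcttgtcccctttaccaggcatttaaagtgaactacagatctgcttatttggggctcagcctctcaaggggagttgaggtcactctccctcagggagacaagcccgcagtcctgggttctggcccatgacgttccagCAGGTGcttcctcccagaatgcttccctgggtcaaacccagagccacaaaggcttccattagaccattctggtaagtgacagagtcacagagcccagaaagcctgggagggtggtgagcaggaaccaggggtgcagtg
Rag1: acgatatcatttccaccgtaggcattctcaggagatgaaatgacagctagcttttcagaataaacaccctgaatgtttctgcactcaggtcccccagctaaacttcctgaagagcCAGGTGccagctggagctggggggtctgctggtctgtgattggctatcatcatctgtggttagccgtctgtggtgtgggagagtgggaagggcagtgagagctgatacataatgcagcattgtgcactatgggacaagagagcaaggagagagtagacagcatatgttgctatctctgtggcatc
Cd79a: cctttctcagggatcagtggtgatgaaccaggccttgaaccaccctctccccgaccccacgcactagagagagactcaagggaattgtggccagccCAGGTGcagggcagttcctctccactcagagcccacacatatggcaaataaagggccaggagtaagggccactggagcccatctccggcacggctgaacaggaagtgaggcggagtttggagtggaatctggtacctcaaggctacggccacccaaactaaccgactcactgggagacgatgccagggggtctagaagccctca

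RefSeq windows were matched to 7 of the 9 genes, all but Cd79b and Ms4a1. The E box began 8 bases before the start in Igll1, 88 in Vpreb1, 135 in Rag1 and 154 in Cd79a, and was not matched in the windows of Pax5, Ebf1 and Vpreb3. Of 32851 mouse windows of this length, 20.2% held it. The EBF core CCCNNGGG was matched in Igll1 alone of the 7 genes, 231 bases before the start, and in 13.7% of all windows. The octamer ATTTGCAT, the site of Oct factors, was matched in Vpreb3 alone, 45 bases before the start, and in 1.74% of all windows. These are matches of letters within 300 bases and not measured sites. Both Igll1 and Vpreb1 thus have an E box in this window.

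Arthritis was accompanied by lower signal of 8 of the 9 genes in each genotype. In Mmp8-/- mice log2 fold changes of these 8 ran from -2.57 for Ms4a1 to -0.76 for Vpreb3, and in Mmp8+/+ mice from -3.01 for Ms4a1 to -1.11 for Ebf1. Vpreb1 was the only one of the 9 that did not pass, with 0.39 in Mmp8-/- mice and -0.01 in Mmp8+/+ mice. Calls are limma's two-sided moderated test, at a Benjamini-Hochberg adjusted p under 0.05 over all 18494 tested features. By the same rule 13.7% of tested features were lower with arthritis in Mmp8-/- mice and 11.7% in Mmp8+/+ mice, and 8.8% were lower in both, as were the same 8 genes. The median log2 fold change of the 9 genes was -1.22 in Mmp8-/- mice and -1.60 in Mmp8+/+ mice, whereas that of all tested features was -0.01 and 0.01.

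**Figure D1:**
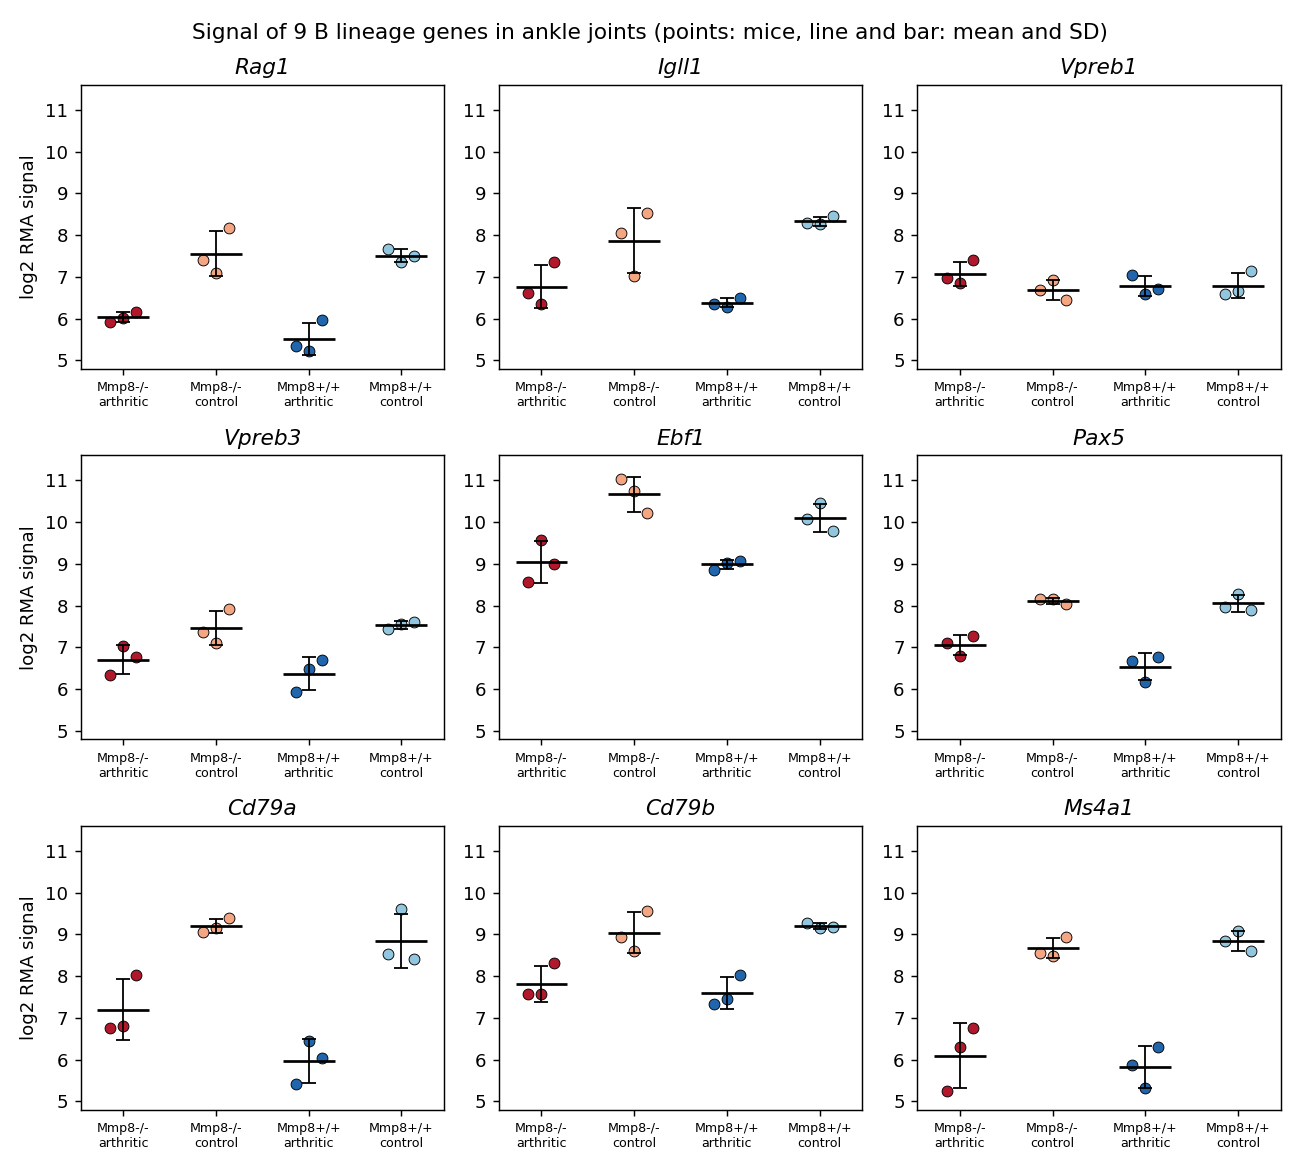
Log2 RMA signal of the 9 genes in each of the 12 mice, 1 panel per gene, with points for mice, a line for the group mean and a bar for the SD (n = 3). In all panels but that of Vpreb1 the group means of arthritic mice lie below those of their control mice, and in the Igll1 panel 1 arthritic Mmp8-/- mouse at 7.35 lies above 1 Mmp8-/- control mouse at 7.02.

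Among precursor genes, Rag1, whose product cuts DNA in receptor gene rearrangement, was lower in every arthritic mouse than in any control mouse. It read 5.92, 6.02 and 6.16 on the log2 scale in arthritic Mmp8-/- mice, against 7.42, 7.10 and 8.17 in Mmp8-/- control mice. Rag1 read 5.36, 5.23 and 5.96 in arthritic Mmp8+/+ mice, against 7.66, 7.35 and 7.50 in Mmp8+/+ control mice. The groups did not overlap in either genotype. Rag1 was 2.88-fold lower with arthritis in Mmp8-/- mice (log2 fold change -1.52, SE 0.25, limma adjusted p = 0.000823) and 3.97-fold lower in Mmp8+/+ mice (-1.99, SE 0.25, limma adjusted p = 9.62e-05).

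Igll1, the surrogate light chain component of the pre-B cell receptor, read 6.61, 6.35 and 7.35 in arthritic Mmp8-/- mice, against 8.05, 7.02 and 8.54 in Mmp8-/- control mice. The highest arthritic mouse was above the lowest control mouse here, and that control mouse is the array labelled Mmp8-/- control that had Mmp8 signal. In arthritic Mmp8+/+ mice Igll1 read 6.35, 6.29 and 6.50, against 8.29, 8.26 and 8.45 in Mmp8+/+ control mice, with no overlap. It was 2.14-fold lower with arthritis in Mmp8-/- mice (log2 fold change -1.10, SE 0.31, limma adjusted p = 0.0241) and 3.88-fold lower in Mmp8+/+ mice (-1.95, SE 0.31, limma adjusted p = 0.000687). Its call in Mmp8-/- mice was lost in 8 of 22 other settings, with adjusted p up to 0.108. Leaving out Mmp8-/- control replicate 1 or 3 gave 0.0915 and 0.0885, and leaving out arthritic Mmp8-/- replicate 1 or 2 gave 0.0819 and 0.0755.

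Vpreb3, which associates with immunoglobulin chains in precursor B cells, read 6.34, 7.03 and 6.76 in arthritic Mmp8-/- mice, against 7.36, 7.11 and 7.93 in Mmp8-/- control mice. Its signal was 5.93, 6.49 and 6.70 in arthritic Mmp8+/+ mice, against 7.44, 7.57 and 7.60 in Mmp8+/+ control mice. Groups did not overlap in either genotype, but the gap in Mmp8-/- mice was narrow, with 7.03 in arthritis below 7.11 in control mice. Vpreb3 was 1.69-fold lower in Mmp8-/- mice (log2 fold change -0.76, SE 0.24, limma adjusted p = 0.0381) and 2.24-fold lower in Mmp8+/+ mice (-1.17, SE 0.24, limma adjusted p = 0.00405). The call in Mmp8-/- mice was lost in 13 of 22 other settings, with adjusted p up to 0.153. Among them, leaving out Mmp8-/- control replicate 1 or 3 gave 0.081 and 0.138, and leaving out arthritic Mmp8-/- replicate 1 or 3 gave 0.153 and 0.0575.

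Vpreb1, the partner of Igll1 in the surrogate light chain, read 6.97, 6.86 and 7.41 in arthritic Mmp8-/- mice, against 6.68, 6.93 and 6.44 in Mmp8-/- control mice. In arthritic Mmp8+/+ mice it read 7.04, 6.60 and 6.71, against 6.59, 6.65 and 7.14 in Mmp8+/+ control mice. The groups overlapped in both genotypes. Averaged over genotypes, the log2 fold change was 0.19 with a 95% interval of -0.12 to 0.50 (limma adjusted p = 0.298), an interval that holds no fall of the size of its neighbour Igll1 (-1.53). Vpreb2, a near-identical paralogue chosen after its values were seen, read 8.91, 8.94 and 8.23 in arthritic Mmp8-/- mice, against 8.15, 8.40 and 8.66 in Mmp8-/- control mice. In arthritic Mmp8+/+ mice it read 8.48, 8.72 and 8.58, against 8.23, 8.22 and 8.34 in Mmp8+/+ control mice. Its averaged log2 fold change was 0.31 (limma adjusted p = 0.0836). Probes of such similar transcripts can share signal, so that the 2 paralogues may not have been measured apart.

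Both lineage factors fell. Ebf1 read 8.57, 9.59 and 8.99 in arthritic Mmp8-/- mice, against 11.05, 10.76 and 10.22 in Mmp8-/- control mice. It read 8.87, 9.03 and 9.08 in arthritic Mmp8+/+ mice, against 10.07, 10.46 and 9.78 in Mmp8+/+ control mice. Arthritic and control mice did not overlap. Ebf1 was 3.08-fold lower in Mmp8-/- mice (log2 fold change -1.62, SE 0.26, limma adjusted p = 0.000739) and 2.16-fold lower in Mmp8+/+ mice (-1.11, SE 0.26, limma adjusted p = 0.0087). It was the only one of the 9 genes with a larger fall in Mmp8-/- mice, a difference that did not pass (interaction -0.51, SE 0.37, limma adjusted p = 1). Without the 3 doubtful arrays the interaction of Ebf1 was -0.04, and those of Cd79b (-0.19), Rag1 (-0.22) and Vpreb3 (-0.0048) were then also below 0. Ebf1 is also used by adipocytes and stromal cells, and 7 of 7 tested adipocyte markers fell in both genotypes. Their mean log2 signal was 7.42 to 8.17 in arthritic Mmp8-/- mice, against 9.93 to 10.04 in Mmp8-/- control mice, and 7.50 to 7.99 in arthritic Mmp8+/+ mice, against 9.34 to 10.21 in Mmp8+/+ control mice. The part of adipocytes in the fall of Ebf1 was not tested.

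Pax5, which holds B cells to their lineage, read 7.11, 6.79 and 7.27 in arthritic Mmp8-/- mice, against 8.16, 8.16 and 8.03 in Mmp8-/- control mice. It read 6.67, 6.18 and 6.77 in arthritic Mmp8+/+ mice, against 7.97, 8.29 and 7.90 in Mmp8+/+ control mice. All arthritic mice were lower than all control mice. Pax5 was 2.08-fold lower in Mmp8-/- mice (log2 fold change -1.06, SE 0.19, limma adjusted p = 0.00144) and 2.85-fold lower in Mmp8+/+ mice (-1.51, SE 0.19, limma adjusted p = 8.85e-05).

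The 2 deepest falls were those of Ms4a1 and Cd79a, genes that mature B cells still use. Ms4a1, which encodes CD20, read 5.24, 6.30 and 6.76 in arthritic Mmp8-/- mice, against 8.57, 8.49 and 8.95 in Mmp8-/- control mice. It read 5.88, 5.31 and 6.30 in arthritic Mmp8+/+ mice, against 8.84, 9.09 and 8.61 in Mmp8+/+ control mice. The highest arthritic mouse, at 6.76, was far below the lowest control mouse, at 8.49. Ms4a1 was 5.94-fold lower in Mmp8-/- mice (log2 fold change -2.57, SE 0.32, limma adjusted p = 0.000106) and 8.08-fold lower in Mmp8+/+ mice (-3.01, SE 0.32, limma adjusted p = 2.81e-05).

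Cd79a, a signalling chain of the antigen receptor, read 6.75, 6.82 and 8.03 in arthritic Mmp8-/- mice, against 9.05, 9.16 and 9.38 in Mmp8-/- control mice. In arthritic Mmp8+/+ mice it read 5.41, 6.45 and 6.04, against 8.52, 9.60 and 8.41 in Mmp8+/+ control mice. The third arthritic Mmp8-/- mouse lay well above the other arthritic mice. Its log2 fold change was -2.00 in Mmp8-/- mice (SE 0.36, limma adjusted p = 0.00186), and it was 7.32-fold lower in Mmp8+/+ mice (log2 fold change -2.87, SE 0.36, limma adjusted p = 0.000107).

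Cd79b, its partner chain, read 7.56, 7.58 and 8.31 in arthritic Mmp8-/- mice, against 8.94, 8.60 and 9.57 in Mmp8-/- control mice. Cd79b read 7.32, 7.45 and 8.03 in arthritic Mmp8+/+ mice, against 9.28, 9.15 and 9.18 in Mmp8+/+ control mice. Groups did not overlap. Cd79b was 2.33-fold lower in Mmp8-/- mice (log2 fold change -1.22, SE 0.26, limma adjusted p = 0.00552) and 3.04-fold lower in Mmp8+/+ mice (-1.60, SE 0.26, limma adjusted p = 0.000774).

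**Figure D2:**
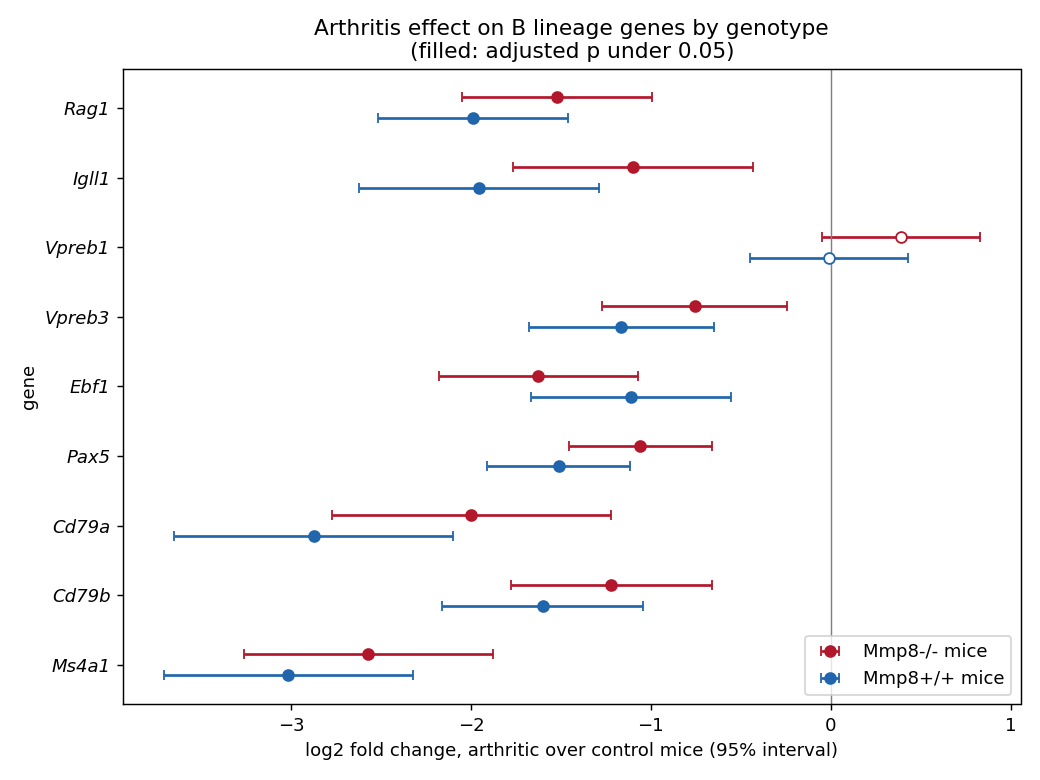
Log2 fold change of arthritic over control mice for the 9 genes, as the point and 95% interval of the limma fit, with Mmp8-/- mice above Mmp8+/+ mice for each gene. Filled points passed an adjusted p of 0.05, the open points of Vpreb1 did not, and Ebf1 alone lies further to the left in Mmp8-/- mice.

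Set by set, the mean of the 3 receptor and mature genes lay further below its own control mean than that of the 4 precursor genes. This order did not hold gene by gene. Cd79b fell less than Rag1, by log2 fold changes of -1.22 against -1.52 in Mmp8-/- mice and -1.60 against -1.99 in Mmp8+/+ mice. Cd79b also fell less than Igll1 in Mmp8+/+ mice (-1.95) but not in Mmp8-/- mice (-1.10), and more than Vpreb3 in both. On arthritic Mmp8-/- arrays the mean log2 difference from the Mmp8-/- control mean was -2.45, -2.07 and -1.27 for the receptor and mature genes, and -0.94, -0.83 and -0.47 for the precursor genes. On arthritic Mmp8+/+ arrays it was -2.76, -2.56 and -2.17 for the receptor and mature genes, and -1.37, -1.39 and -1.07 for the precursor genes. Without Vpreb1, left out after its values were seen, the precursor means were -1.34, -1.16 and -0.87 in arthritic Mmp8-/- mice and -1.91, -1.79 and -1.40 in arthritic Mmp8+/+ mice, still smaller in size on each of these arrays. The receptor and mature mean less this precursor mean ran from -0.29 to 0.38 on control arrays. It was -0.40 on arthritic Mmp8-/- replicate 3, close to that range, and -1.11 to -0.77 on the other arthritic arrays. The lineage factors differed by -1.56, -1.21 and -1.26 in arthritic Mmp8-/- mice and by -1.31, -1.47 and -1.15 in arthritic Mmp8+/+ mice. Against control means without the 3 doubtful arrays the order of the receptor and mature genes and the precursor genes was the same on each arthritic array, with -2.78, -2.40 and -1.60 against -1.31, -1.20 and -0.85 in arthritic Mmp8-/- mice. With Vpreb1 left out as well, the precursor means of arthritic Mmp8-/- mice were -1.92, -1.74 and -1.45. The gap was then small on replicate 3, with -1.60 against -1.45. These are descriptions of chosen genes with no test, and a fall of a row also depends on how far its signal stood above its own background.

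Groups without overlap were counted beside the calls. Arthritic mice were lower than control mice without overlap for 7 of the 9 genes in Mmp8-/- mice, against 21% of tested features, and for 8 of 9 in Mmp8+/+ mice, against 22.3%. When all 6 arthritic mice were set against all 6 control mice, 7 of the 9 genes did not overlap, against 12.1% of tested features. Igll1 and Vpreb1 were the exceptions in Mmp8-/- mice and over all 12 mice, and Vpreb1 in Mmp8+/+ mice. Averaged over genotypes, 8 of the 9 genes were called lower, against 22.6% of tested features.

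The doubtful arrays touched Mmp8-/- mice most. Without both arrays with Xist signal, 6 of the 9 genes were called lower in Mmp8-/- mice and 8 in Mmp8+/+ mice. Tested features called in either direction fell too, to 1726 and 1936 in these genotypes, against 3996 and 3490 with all arrays. The genes lost in Mmp8-/- mice were Igll1 (log2 fold change -1.01, limma adjusted p = 0.108) and Vpreb3 (-0.81, limma adjusted p = 0.0968). Without these and the array labelled Mmp8-/- control that had Mmp8 signal, which leaves 1 Mmp8-/- control mouse, 4 were called in Mmp8-/- mice and 8 in Mmp8+/+ mice. Rag1, Igll1, Cd79b and Ms4a1 were the 4. The log2 fold changes of the others were then -2.18 for Cd79a (limma adjusted p = 0.0558), -0.97 for Pax5 (limma adjusted p = 0.128), -1.17 for Ebf1 (limma adjusted p = 0.129) and -1.22 for Vpreb3 (limma adjusted p = 0.0778), with fewer arrays in the fit. Without the array labelled Mmp8-/- control that had Mmp8 signal alone, all 8 were called. Calls over all tested features in Mmp8-/- mice were fewer in each of these settings, with 2389 in the last.

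The question of the study, whether loss of Mmp8 alters the response, was put to the same genes. None of the 9 passed between arthritic Mmp8-/- and arthritic Mmp8+/+ mice, where 0.00541% of tested features were called, which is 1 feature. All 9 log2 differences were above 0, with a median of 0.34 against -0.01 for all tested features. The difference of Cd79a was 1.23 (SE 0.36, 95% interval 0.45 to 2.01, limma adjusted p = 1), and the 3 arthritic Mmp8-/- mice lay above the 3 arthritic Mmp8+/+ mice. Pax5 also did not overlap, with 0.52 (SE 0.19, 95% interval 0.12 to 0.91, limma adjusted p = 1). These 2 of 9 genes compare with 2.84% of tested features that were higher without overlap. At an unadjusted p under 0.05 the same 2 genes passed, as did 523 features (2.83%). The intervals of the other 7 genes included 0. Leaving out arthritic Mmp8-/- replicate 3 turned the differences of Cd79b and Ms4a1 to -0.03 and -0.06 and lowered that of Cd79a to 0.81. That of Pax5 was 0.34 without arthritic Mmp8+/+ replicate 2.

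Between Mmp8-/- and Mmp8+/+ control mice none of the 9 genes passed and 0% of tested features were called. Mmp8 itself was thus not called here, where replicate 2 labelled Mmp8-/- control read 10.65 for it. A lack of calls in this comparison therefore says little, and the interaction shares this array. Without it 1 feature was called between control mice. With all arrays 596 features (3.22%) had an unadjusted p under 0.05, Ebf1 among them. Ebf1 had the largest difference, 0.57 (SE 0.26, limma adjusted p = 1), and was 0.10 when the 3 doubtful arrays were left out. The difference of Rag1 was 0.06 with all arrays and 0.74 without these (limma adjusted p = 1), and that of Vpreb1 -0.10 with all arrays and -0.45 without these (limma adjusted p = 1). The groups overlapped for all 9 genes, as they did for most tested features, of which 3.82% were lower and 4% higher without overlap. The interaction of genotype and arthritis was called for none of the 9 genes and for 0% of tested features, with 576 (3.11%) at an unadjusted p under 0.05. It was above 0 for 8 of the 9 genes, which for 7 of them was a smaller fall in Mmp8-/- mice and for Vpreb1 was no fall at all. It was 0.87 for Cd79a (SE 0.51, 95% interval -0.22 to 1.97) and 0.86 for Igll1 (SE 0.44, 95% interval -0.09 to 1.80), each with an adjusted p of 1 in limma. That of Cd79a was 0.46 without arthritic Mmp8-/- replicate 3 and 0.50 without Mmp8+/+ control replicate 2. That of Igll1 was 0.57 without arthritic Mmp8-/- replicate 3, 0.43 without the array labelled Mmp8-/- control that had Mmp8 signal, and 0.21 without all 3 doubtful arrays. These comparisons share arrays, so their signs are not separate evidence.

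**Figure D3:**
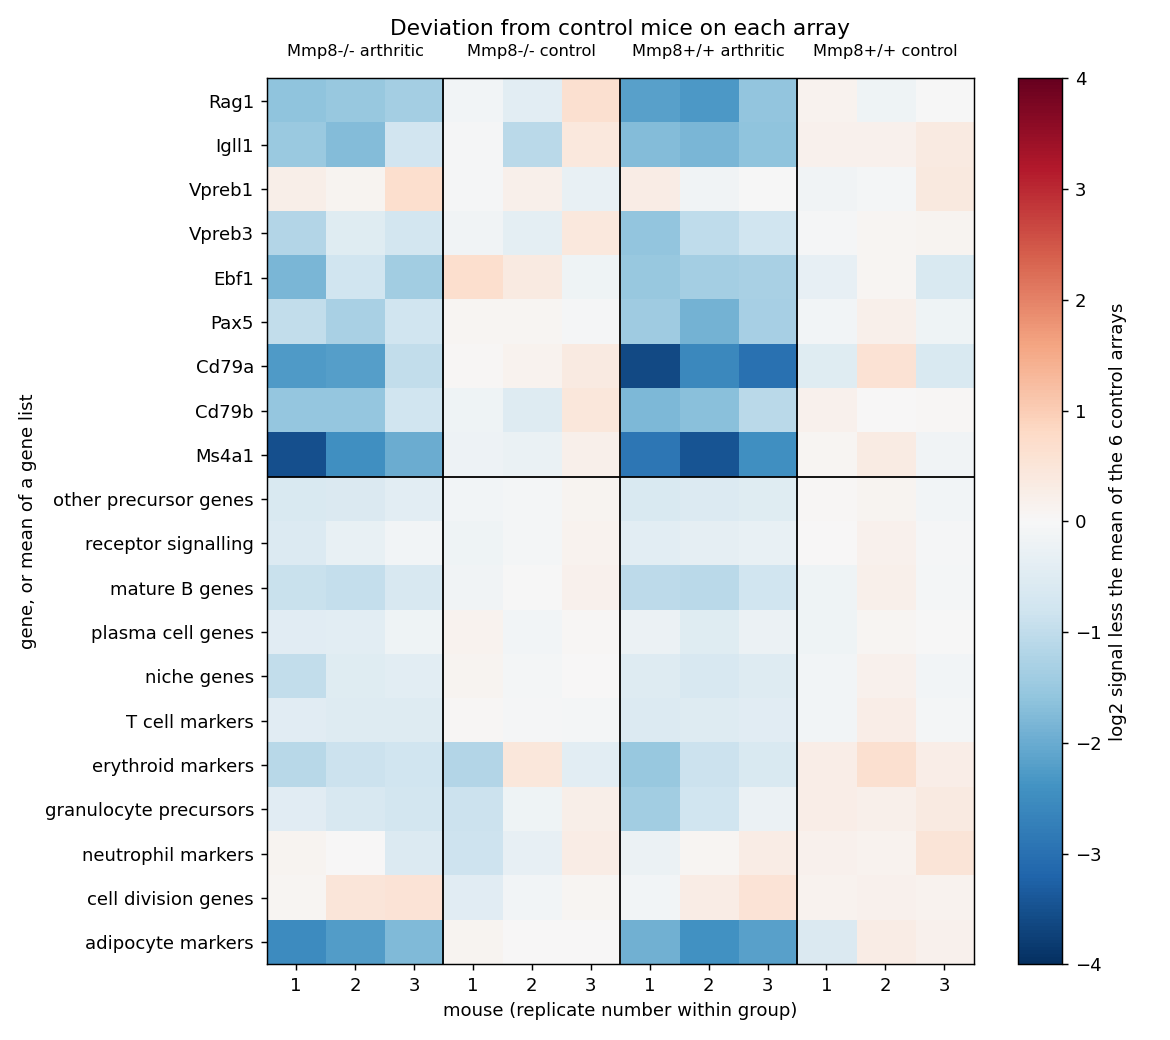
Log2 signal less the mean of the 6 control arrays, in colour from -4 (blue) to 4 (red), for the 9 genes and for the means of 11 gene lists (rows) on each of the 12 arrays (columns). The arthritic columns are blue for all genes but Vpreb1 and for the adipocyte markers, whereas the erythroid and granulocyte precursor means are also low on the array of Mmp8-/- control replicate 1.

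Other genes of the B lineage were looked at by list. Of 14 tested genes of early B and lymphoid precursors, 7 fell in Mmp8-/- mice and 6 in Mmp8+/+ mice, 5 of them in both, and none rose. Of all tested features 7.92% rose in Mmp8-/- mice and 7.2% in Mmp8+/+ mice. Dntt, the terminal transferase that adds bases at rearranged joints, was at 5.75 ± 0.50 in arthritic Mmp8-/- mice and 7.22 ± 0.46 in Mmp8-/- control mice, and at 5.71 ± 0.30 in arthritic Mmp8+/+ mice and 7.35 ± 0.08 in Mmp8+/+ control mice (SD, n = 3). Its log2 fold changes were -1.47 and -1.64 (SE 0.26), those of Enpep, the BP-1 antigen, -1.46 and -1.50 (SE 0.16), and those of Cd24a, the heat stable antigen, -0.93 and -1.14 (SE 0.22), in Mmp8-/- and Mmp8+/+ mice. Enpep and Cd24a are also made by cells outside the B lineage. The list's median log2 fold change was -0.53 in Mmp8-/- mice and -0.45 in Mmp8+/+ mice.

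Of 17 tested genes of immature and mature B cells, 10 fell in Mmp8-/- mice and 11 in Mmp8+/+ mice, 8 in both, and none rose. The low affinity IgE receptor Fcer2a, known as CD23, was at 5.08 ± 0.25 in arthritic Mmp8-/- mice and 7.40 ± 0.31 in Mmp8-/- control mice, and at 5.28 ± 0.30 in arthritic Mmp8+/+ mice and 7.60 ± 0.56 in Mmp8+/+ control mice (SD, n = 3). It fell by 2.32 on the log2 scale in either genotype (SE 0.26). Fcrla, an Fc receptor-like protein of B cells, had log2 fold changes of -1.82 and -2.09 (SE 0.34), and the IgM heavy chain gene Ighm -1.70 and -1.66 (SE 0.21), in Mmp8-/- and Mmp8+/+ mice. The median of this list was -0.77 in Mmp8-/- mice and -1.03 in Mmp8+/+ mice.

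Of 14 tested genes of antigen receptor signalling, 5 fell and 1 rose in Mmp8-/- mice, and 3 fell and 1 rose in Mmp8+/+ mice. The adaptor Bank1 had log2 fold changes of -1.04 and -2.21 (SE 0.25), the kinase Blk -0.92 and -1.18 (SE 0.22) and the inhibitory receptor Cd22 -0.95 and -1.05 (SE 0.20), in Mmp8-/- and Mmp8+/+ mice. The gene that rose in both was Fcgr2b, an inhibitory IgG receptor that myeloid cells carry too, with 0.69 in either (SE 0.18). Vav1, used across blood cells, rose only in the average over genotypes (0.35, SE 0.11, limma adjusted p = 0.0228). Most of the other genes of this list are likewise used by other blood cells.

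Plasma cell genes moved both ways. Jchain, which joins IgM and IgA chains, was at 7.15 ± 0.38 in arthritic Mmp8-/- mice and 9.85 ± 0.48 in Mmp8-/- control mice, and at 7.10 ± 0.58 in arthritic Mmp8+/+ mice and 9.86 ± 0.64 in Mmp8+/+ control mice (SD, n = 3). It fell by 2.70 and 2.77 on the log2 scale in Mmp8-/- and Mmp8+/+ mice (SE 0.35), and the factor Irf4 fell by 1.38 and 1.03 (SE 0.25). Mzb1, a chaperone of the endoplasmic reticulum, fell in the average alone (-0.52, SE 0.15, limma adjusted p = 0.012). Prdm1, which encodes BLIMP1, rose by 0.81 and 0.73 (SE 0.23). Sdc1, the plasma cell marker CD138 that epithelial cells also make, rose by 1.02 in Mmp8+/+ mice and had 0.42 in Mmp8-/- mice (SE 0.21, limma adjusted p = 0.154).

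Of 11 tested genes that give B cells and their precursors niche or survival signals, 5 fell and 1 rose in each genotype. Il7, the cytokine that mouse B cell precursors need, was at 4.89 ± 0.36 in arthritic Mmp8-/- mice and 7.08 ± 0.47 in Mmp8-/- control mice, and at 4.88 ± 0.08 in arthritic Mmp8+/+ mice and 6.74 ± 0.22 in Mmp8+/+ control mice (SD, n = 3). It fell by 2.19 and 1.85 on the log2 scale in Mmp8-/- and Mmp8+/+ mice (SE 0.23). Its mean signals in arthritic mice lay below 5.30, the lowest mean of a tested row, as did those of Fcer2a. Bank1 read 5.24, 5.23 and 5.40 in arthritic Mmp8+/+ mice, about the same level. The sizes of these falls are therefore less certain than their calls. The leptin receptor Lepr, a marker of marrow stroma, had log2 fold changes of -2.77 and -3.10 (SE 0.23), and the stromal factor Foxc1 -1.18 and -0.84 (SE 0.22). Cxcl13, which draws mature B cells into follicles, rose by 2.36 and 1.49 (SE 0.26). Cxcl12, the chemokine that holds precursors in marrow, had -0.33 and -0.21 (SE 0.20) and did not pass. Without the 3 doubtful arrays fewer genes of these 5 lists passed in Mmp8-/- mice, with 2 early precursor genes, 4 immature and mature genes, 0 signalling genes, 1 plasma cell gene and 2 niche genes called lower. In Mmp8+/+ mice 6, 10, 3, 1 and 2 genes of the same lists were then called lower. Median log2 fold changes of the early precursor and the immature and mature lists were -0.59 and -0.80 in Mmp8-/- mice without these arrays. Calls over all tested features in Mmp8-/- mice were also fewer in that fit, which holds 1 Mmp8-/- control mouse. None of the genes of these 5 lists was called between genotypes or for the interaction.

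**Figure D4:**
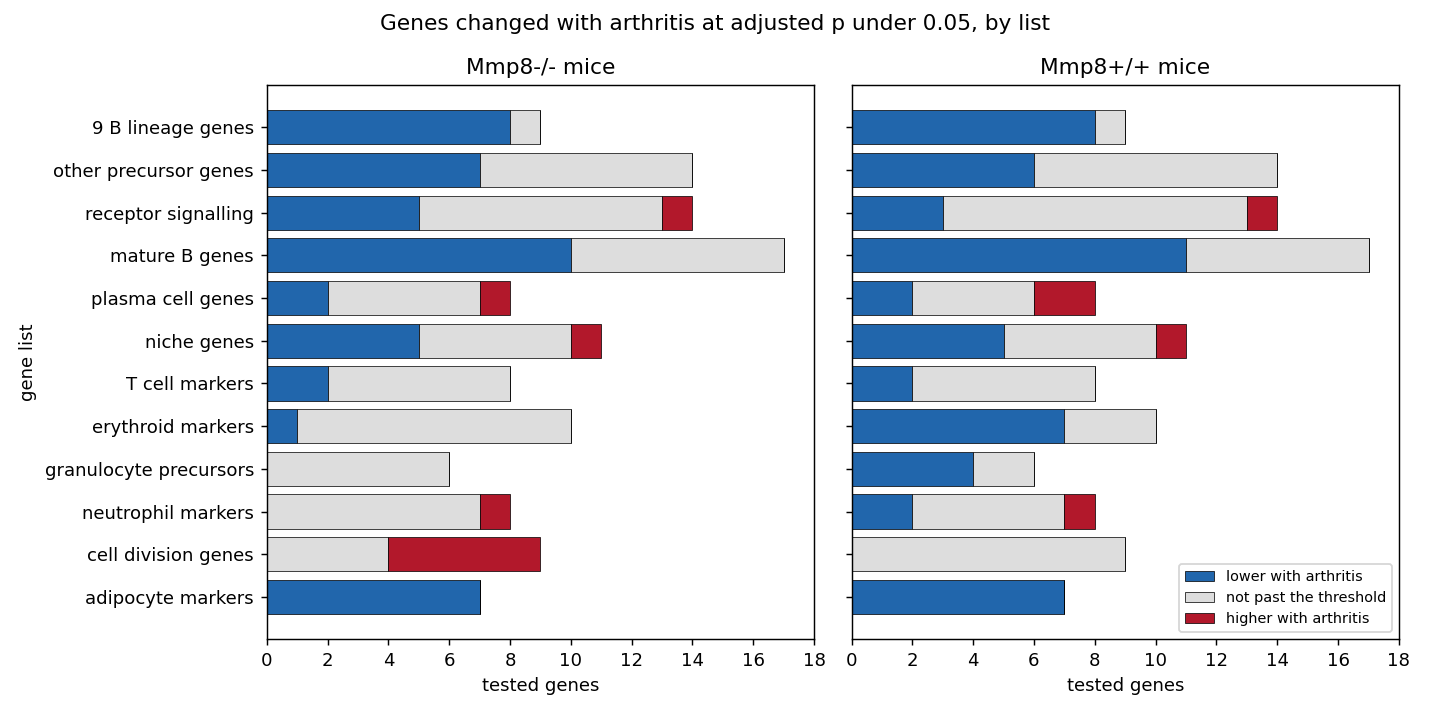
Number of tested genes that were lower (blue), not past the threshold (grey) or higher (red) with arthritis, at a limma adjusted p under 0.05, for the 9 genes and 11 lists, in Mmp8-/- mice on the left and Mmp8+/+ mice on the right. Of the 9 genes 8 are blue in both panels, and of the erythroid markers 1 is blue in Mmp8-/- mice and 7 in Mmp8+/+ mice.

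Markers of other marrow and blood cells moved with arthritis to unequal extents. Of 10 tested erythroid markers, 1 fell in Mmp8-/- mice and 7 in Mmp8+/+ mice. Their mean log2 signal was 6.39 to 6.70 in arthritic Mmp8-/- mice, against 6.32 to 7.97 in Mmp8-/- control mice, and 6.00 to 6.91 in arthritic Mmp8+/+ mice, against 7.76 to 8.15 in Mmp8+/+ control mice. Of 6 granulocyte precursor markers, 0 were called in Mmp8-/- mice and 4 fell in Mmp8+/+ mice. Their mean was 8.34 to 8.63 in arthritic Mmp8-/- mice, against 8.20 to 9.31 in Mmp8-/- control mice, and 7.68 to 8.85 in arthritic Mmp8+/+ mice, against 9.26 to 9.42 in Mmp8+/+ control mice. In both lists the lowest control value was Mmp8-/- control replicate 1, on which the mean of the 9 B lineage genes, 8.36, lay between those of the other Mmp8-/- control mice. This array is 1 of the 2 with Xist signal. Without it 2 erythroid and 0 granulocyte precursor markers fell in Mmp8-/- mice, and 9 and 5 in Mmp8+/+ mice. Without all 3 doubtful arrays 0 and 0 fell in Mmp8-/- mice, and 8 and 2 in Mmp8+/+ mice.

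Of 8 T cell markers 2 fell in each genotype, and their mean was 6.20 to 6.26 in arthritic Mmp8-/- mice, against 6.63 to 6.75 in Mmp8-/- control mice, and 6.17 to 6.27 in arthritic Mmp8+/+ mice, against 6.62 to 6.99 in Mmp8+/+ control mice. Of 8 neutrophil markers, 1 rose in Mmp8-/- mice, and 1 rose and 2 fell in Mmp8+/+ mice. Of 9 cell division genes, 5 rose in Mmp8-/- mice and 0 passed in Mmp8+/+ mice, and 0 passed in either without Mmp8-/- control replicate 1. Of 7 macrophage markers 1 rose and 1 fell in each genotype, and of 9 joint tissue markers 1 rose in each, 3 fell in Mmp8-/- mice and 2 in Mmp8+/+ mice. No joint tissue marker was called in Mmp8-/- mice without Mmp8-/- control replicate 1. Whether the falls of the 9 genes came with a smaller share of marrow in the sample was not tested. The difference between genotypes in these marker counts was not tested either.

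Within groups the 9 genes did not vary as 1 block. On values less their group means over 12 arrays, Cd79b and Ms4a1 followed the mean of the other 8 genes most closely (Pearson r 0.84 and 0.80), Igll1, Vpreb3, Rag1 and Cd79a less so (0.48 to 0.59), and Pax5 weakly (0.31). Ebf1 (-0.06) and Vpreb1 (-0.14) did not follow it. The mean of the 9 genes deviated most on the arthritic Mmp8-/- arrays, by 0.36 on replicate 3 and by -0.31 on replicate 1. These coefficients are descriptions, over points that share array and normalization.

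Of 15982 other genes, the 10 most like the mean of the 9 genes by the same measure were Cenpq, Ncaph, Strbp, Tfec, Tm6sf1, Wars, Kcnk1, Itga9, Emp3 and Fcgr1, with Pearson r between 0.97 and 0.92 and Spearman rho between 0.81 and 0.99. They were picked as the highest of 15982 coefficients with 8 degrees of freedom left, so their height is partly selection. Whether they exceed what such a search gives without any link was not tested. With arthritis 7 of the 10 passed in neither genotype. Kcnk1, a potassium channel, had log2 fold changes of -1.09 in Mmp8-/- mice (limma adjusted p = 0.0109) and -0.76 in Mmp8+/+ mice (limma adjusted p = 0.0582), and Wars, a tRNA synthetase, -0.56 (limma adjusted p = 0.0312) and -0.38 (limma adjusted p = 0.126). Fcgr1, the high affinity IgG receptor of myeloid cells, rose by 1.23 and 1.03 (limma adjusted p = 0.000488 and 0.00176).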

How the data were processed

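The authors deposited log2 RMA signals of 28853 array rows for 12 arrays, made from raw intensities by RMA, and named Partek in their processing notes. All 12 value columns were used and 0 were left out. RMA and the filter on values below background could not be repeated from these values. The number of arrays limits the precision. The platform annotation gave 1 symbol to 21789 rows, several to 1621 and none to 5443; of the rows with 1 symbol, 21698 were matched to a RefSeq gene (GRCm38.p6), used for names and neighbours.

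Tested were the 79% of the 23410 named rows with the highest mean signal, 18494 rows with means of at least 5.30. Group means were fitted with limma 3.58.1 in R 4.3.3 over all 12 arrays, without covariates, with moderated variances and 8 degrees of freedom left. There were 6 comparisons, each two-sided and adjusted by Benjamini-Hochberg at 5%. Every adjusted p in the text is from this fit unless another setting is named. Errors of fold changes are SE and those of means are SD. Replicates are separate mice, numbered here within groups. The procedure was tested on simulated data. Motifs were searched on both strands of RefSeq promoter windows.

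Named are all 9 genes, Mmp8 and Xist, up to 6 genes from each of 5 further lists (the 3 largest rises and the 3 largest falls averaged over genotypes among those that passed), and the 10 genes most like the 9. Cxcl12 and Vpreb2 were added after their values were seen, and Eif2s3y is named as a further check of labels. The members and lists were chosen with earlier results of these data known. Alternatives were the compared arrays alone, ordinary linear regression, other moderation, array weights, no filter, every row, 2 further normalizations, leaving out each array in turn, and leaving out the doubtful arrays. List counts and means of gene sets without the doubtful arrays were added after seeing the data. Lyn, Cd38, Ighd and Tnfsf13 had no row of their own symbol alone, and Rag2 and Cxcr5 were below the filter.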

Additional observations from a re-analysis of the deposited data

How the results depend on the processing

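In Mmp8-/- mice 6 to 8 of the 9 genes were called with single mice left out, and 4 without the 3 doubtful arrays. The 8 calls in Mmp8+/+ mice held in all 22 alternatives and the 8 averaged over genotypes in all 21, with the same genes called. No member was called between genotypes or for the interaction in any alternative. No paired analysis was possible because the replicate numbers were given here and pair no mice across groups.

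Features called with arthritis fell to 1726 in Mmp8-/- mice, 1936 in Mmp8+/+ mice and 4830 in the average without both arrays with Xist signal, against 3996, 3490 and 7783 with all arrays, and to 485, 1715 and 2707 without these and the array labelled Mmp8-/- control that had Mmp8 signal, with fewer arrays in the fit. With single mice left out they ran from 1849 (without Mmp8-/- control replicate 1) to 4194 in Mmp8-/- mice and from 2081 (without Mmp8+/+ control replicate 1) to 4318 in Mmp8+/+ mice. Counts were also over 1.5 times lower without the array labelled Mmp8-/- control that had Mmp8 signal (2389), arthritic Mmp8-/- replicate 1 (2257) and arthritic Mmp8+/+ replicate 1 (2153). Between arthritic mice of the 2 genotypes, where 1 feature was called, there were 3 with the compared arrays alone, 0 with ordinary regression, array weights, no filter, every feature or no arrays with Xist signal, 2 without the 3 doubtful arrays and 0 to 2 without single mice. Between control mice, 0 became 1 without the 3 doubtful arrays and 0 to 1 without single mice.

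The near-zero log2 fold change of Vpreb1 in Mmp8+/+ mice turned to 0.0373 with array weights, 0.0414 with array means subtracted and 0.0131 with quantile normalization, and ran from -0.14 to 0.16 without single mice. Without the 3 doubtful arrays, differences between Mmp8-/- and Mmp8+/+ control mice turned to 0.40 for Cd79b, 0.10 for Ms4a1, -0.062 for Pax5, 0.34 for Vpreb3 and 0.18 for Igll1, and interactions to -0.19 for Cd79b, -0.0048 for Vpreb3 and -0.22 for Rag1. Without single mice, differences between arthritic Mmp8-/- and Mmp8+/+ mice ran from -0.0289 to 0.43 for Cd79b, -0.0611 to 0.70 for Ms4a1 and -0.21 to 0.30 for Ebf1. Between control mice they ran from -0.43 to 0.0531 for Cd79b, -0.013 to 0.18 for Pax5, -0.23 to 0.0673 for Vpreb1, -0.30 to 0.11 for Vpreb3 and -0.24 to 0.29 for Rag1. None of these passed with all arrays, and the cause was not tested. A lone Mmp8-/- control mouse, left without the 3 doubtful arrays, was assumed to vary like the other groups. The alternative of other rows of a gene gave no value, since each gene had 1 row.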
